A study of Mus musculus with 19 samples.

Results

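High endothelial cells (HEC) of mouse mesenteric lymph nodes were compared with capillary endothelial cells of the same nodes. HEC line the high endothelial venules, the post-capillary vessels through which lymphocytes leave the blood. The 6 arrays titled as mesenteric were used, of 19 in the series: 2 of HEC sorted as MAdCAM1+/PNAd+ (replicates 1 and 2, called double-positive here), 2 of HEC sorted as MAdCAM1+ (replicates 3 and 4), and 2 of capillary cells (replicates 1 and 2). The rule was the mean of both HEC gates minus the mean of the capillary arrays on the log2 scale, over all 19938 genes with at least 1 probe set of a single gene symbol. All cells came from an equal mix of male and female adult Balb/c mice aged 6 to 8 weeks, with no transgene or treatment in the labels. The other 13 arrays were HEC and capillary cells of peripheral nodes (4 and 3 arrays) and of Peyer's patches (3 and 3 arrays), and they entered the model for its estimate of spread and for the tissue comparisons. The labels give neither the capillary gate nor whether replicates were separate sorts, so the p-values reflect only how far these samples vary, and that variation may be technical.

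As background, lymphocytes roll on high endothelium through L-selectin, which binds sulfated and fucosylated sugar chains carried by mucin-like proteins. These chains form the peripheral node addressin, PNAd. In vessels of gut-draining tissue, MAdCAM-1 binds the integrin alpha4beta7 of gut-homing lymphocytes, and mesenteric nodes are known to display both addressins. Capillaries of the same nodes exchange gases, water and nutrients, and they feed into these venules. The deposited values are centred for each probe set, so they show differences between arrays and not levels, and a value near 0 is not absence of the transcript. In sorted bulk cells, fewer cells of a type and less RNA per cell cannot be told apart.

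The 6 mesenteric arrays split by cell type. Across genes, HEC and capillary arrays differed with an SD of 0.477 to 0.563 log2 in the 8 pairs, against 0.238 to 0.247 between arrays of the same title group (3 pairs) and 0.178 to 0.277 between the HEC gates (4 pairs). The closest pairs crossed the gates: double-positive array 1 lay 0.178 from MAdCAM1+ array 3 and double-positive array 2 lay 0.193 from MAdCAM1+ array 4. Xist, the X-inactivation transcript of female cells, read 0.27, -0.61, 0.26 and -0.73 on the HEC arrays, against -0.12 and -1.07 on the capillary arrays, while the Y-linked Kdm5d read -0.10, 0.45, -0.38 and 0.11 on the HEC arrays, against -0.29 and 0.45 on the capillary arrays. Arrays 1 and 3 thus stood apart from arrays 2 and 4 within HEC, and capillary array 1 from capillary array 2 in the same direction, so both cell types held arrays of either kind. With this split of the mesenteric arrays as a block, 3187 genes were called between HEC and capillary cells in place of 3027. Per-array values are given in the order double-positive 1 and 2, then MAdCAM1+ 3 and 4, for HEC, and 1 and 2 for capillary cells. With limma's moderated test over all 19 arrays and Benjamini-Hochberg adjustment, 1570 genes were called higher in mesenteric HEC (7.87% of all genes tested) and 1457 lower (7.31%) at an adjusted p below 0.05. At least 2-fold differences with that adjusted p were found for 453 higher (2.27%) and 478 lower genes (2.4%), and the median difference of all genes was -0.005. Of the called genes, 1559 higher and 1450 lower ones had all 4 HEC arrays on the same side of both capillary arrays. Over all genes, called or not, the HEC arrays lay above both capillary arrays in 3706 (18.6%) and below both in 3688 (18.5%). Without capillary array 1 the count of called genes was 1791 in place of 3027. Of the marker genes of each cell type, 8 of 9 HEC markers measured were higher in HEC and 0 lower, and 8 of 8 capillary markers were lower.

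The 12 largest positive differences included addressins, the sulfotransferase of PNAd and several secreted proteins. Madcam1, which encodes the gating antigen MAdCAM-1 and therefore describes the sort, read 5.45, 5.34, 5.62 and 5.45 on the HEC arrays, against -0.61 and -0.92 on the capillary arrays, a 74.9-fold difference. Glycam1, whose secreted mucin bears sugar chains for L-selectin, read 5.04, 4.81, 5.07 and 5.05 on the HEC arrays, against 0.03 and -0.58 on the capillary arrays. The HEC arrays lay close together and the transcript was 38.5-fold higher (log2 difference 5.27 ± 0.53 SE, adjusted p = 1.25e-06). Chst4, the sulfotransferase that adds the sulfate of the PNAd epitope, read 5.38, 5.67, 3.90 and 4.18 on the HEC arrays, against -0.36 and -0.06 on the capillary arrays, and was 31.9-fold higher (log2 difference 5.0 ± 0.39 SE, adjusted p = 5.03e-08). Oit1 read 5.35, 4.83, 5.06 and 4.79 on the HEC arrays, against 0.17 and 0.05 on the capillary arrays. Serpina3n, a secreted serine protease inhibitor, read 4.67, 4.67, 4.44 and 4.28 on the HEC arrays, against 0.35 and -0.27 on the capillary arrays, and C1s1, a protease of the first complement component, read 3.29, 2.60, 2.98 and 2.40 on the HEC arrays, against -1.13 and -1.50 on the capillary arrays. No HEC array overlapped a capillary array for these genes, and the fitted differences were 4.90 ± 0.26, 4.47 ± 0.49 and 4.13 ± 0.37. Tshr, the thyrotropin receptor, was 16.9-fold higher (log2 difference 4.08 ± 0.33 SE, adjusted p = 7.44e-08), and Camk4, a calcium/calmodulin-dependent kinase best known in T cells and neurons, was 15.5-fold higher (log2 difference 3.96 ± 0.19 SE, adjusted p = 1.26e-10). Tc2n read 5.31, 3.73, 5.39 and 3.78 in HEC, against -0.20 and -0.52 on the capillary arrays, with a difference of 4.91 ± 0.53. Its HEC arrays 1 and 3 lay together above HEC arrays 2 and 4, across the gates. Ehd3, an endocytic recycling protein, Plxdc2, a transmembrane plexin-domain protein, and Dennd2d, a protein of the DENN domain group, completed the 12 largest, with differences of 4.06, 3.98 and 3.97.

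The 12 largest negative differences included lipid-handling and membrane transport genes known from capillaries. Cd36, the fatty acid translocase, read -0.75, -0.41, -0.09 and 1.30 on the HEC arrays, against 5.52 and 5.85 on the capillary arrays. It was 51.0-fold lower (log2 difference -5.67 ± 0.34 SE, adjusted p = 1.63e-09), and the second MAdCAM1+ array was the highest of the HEC arrays. Car4, a membrane carbonic anhydrase of capillary endothelium, read -0.41, -0.27, -0.15 and -0.30 on the HEC arrays, against 5.67 and 4.58 on the capillary arrays, and was 42.5-fold lower (log2 difference -5.41 ± 0.22 SE, adjusted p = 1.7e-11). Igfbp3, an insulin-like growth factor binding protein, read -2.96, -3.77, -3.88 and -3.73 on the HEC arrays, against 1.69 and 1.64 on the capillary arrays, and was 38.1-fold lower (log2 difference -5.25 ± 0.17 SE, adjusted p = 2.8e-12). Ednrb, the endothelin B receptor, read -0.44, -0.59, -0.46 and -0.10 on the HEC arrays, against 4.55 and 4.46 on the capillary arrays, and was 29.9-fold lower (log2 difference -4.90 ± 0.14 SE, adjusted p = 6.92e-13). Its HEC arrays spanned less than 1 log2 unit and lay far below both capillary arrays. Btnl9, a butyrophilin-like protein of capillaries, was 26.2-fold lower (log2 difference -4.71 ± 0.13 SE, adjusted p = 4.51e-13). Rbp7, a retinoid-binding protein of the fatty acid binding family, fell by 5.10 on the log2 scale, Aqp7, a glycerol channel, by 4.71, and Gpihbp1, the capillary anchor of lipoprotein lipase, by 4.55. Clic5, a chloride channel family protein, Rgcc, a cell cycle regulator, Itih5, a hyaluronan-binding matrix protein, and Cdh13, T-cadherin, had differences of -4.29, -4.17, -4.17 and -4.13. For every one of the 24 genes in the plot of the largest differences, the capillary and HEC arrays did not overlap, which the naming rule required.

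**Figure D1:**
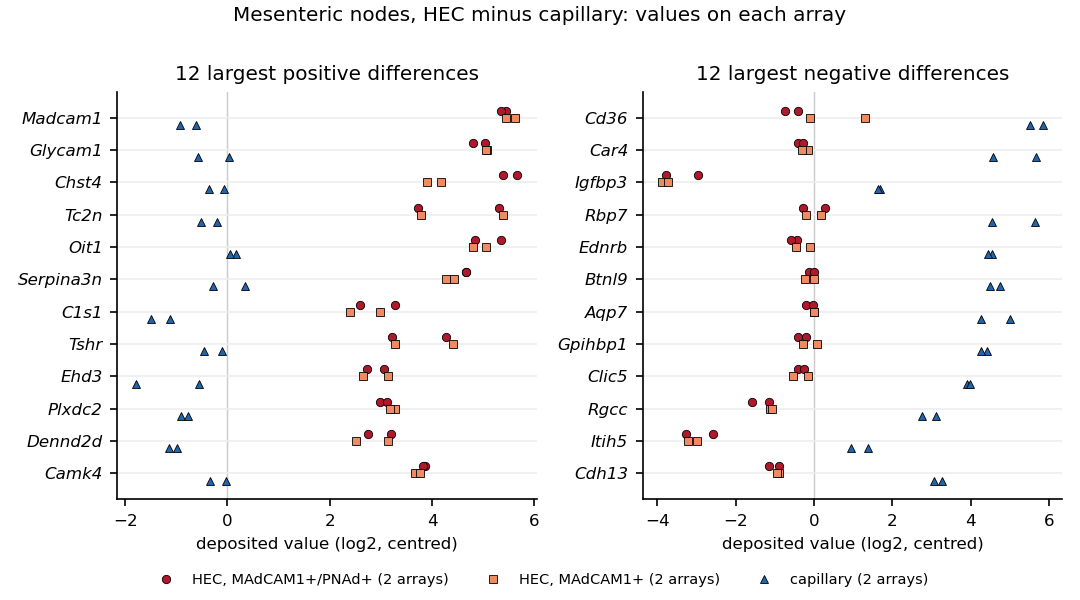
Deposited centred log2 values (x axis) of the 12 genes with the largest positive and the 12 with the largest negative HEC minus capillary difference (y axis) on the 6 mesenteric arrays; each point is 1 array. Madcam1 stood at 5.34 or more on every HEC array and at -0.61 or less on both capillary arrays, and Cd36 at 1.30 or less on every HEC array and 5.52 or more on both capillary arrays.

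Genes that build the L-selectin ligand gave more higher than lower calls in HEC. Of the 20 genes of that synthesis measured, 12 were called higher in HEC and 1 lower, with a median difference of 0.64, beside 7.87% and 7.31% over all genes. Without capillary array 1 the higher calls were 10, and without capillary array 2 they were 8. Gcnt1, which starts the core 2 branch of the O-glycan, read 3.24, 2.75, 3.01 and 2.37 on the HEC arrays, against -1.05 and -1.0 on the capillary arrays, and was 14.6-fold higher (log2 difference 3.87 ± 0.23 SE, adjusted p = 2.05e-09). Fut7, the fucosyltransferase of sialyl Lewis X, read 3.45, 3.67, 3.31 and 3.47 on the HEC arrays, against 0.28 and 0.41 on the capillary arrays, and was 8.74-fold higher (log2 difference 3.13 ± 0.19 SE, adjusted p = 2.05e-09). Chst1, a second sulfotransferase, read 2.37, 2.62, 2.17 and 2.29 on the HEC arrays, against -0.49 and -0.46 on the capillary arrays. All of these arrays separated by cell type, and Chst1 was 7.14-fold higher (log2 difference 2.84 ± 0.14 SE, adjusted p = 2.47e-10). Gmds, which makes GDP-fucose, and Slc26a2, a sulfate transporter, rose by 1.64 and 1.40. The sialyltransferases St3gal3 and St3gal4 did not pass the test (differences 0.37 and 0.37, adjusted p = 0.123 and 0.0827), nor did the galactosyltransferase B4galt1 (-0.35, adjusted p = 0.15). The PNAd antibody of the double-positive gate reads the product of these enzymes, so for that gate their levels are close to what was sorted on. Among the mucin-like carriers, Parm1, a mucin-like membrane protein, rose by 1.94. Podxl, podocalyxin, fell by 2.59 (adjusted p = 2.23e-11), with -0.08, 0.00, -0.08 and 0.06 on the HEC arrays, against 2.63 and 2.49 on the capillary arrays. Emcn, endomucin, fell by 1.14, and Cd34 had a difference of -0.28 that did not pass (adjusted p = 0.288). The carriers thus did not move in 1 direction: 3 of 9 were higher and 2 lower.

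The promoter of Madcam1 is shown because the gene had the largest difference and is a textbook target of NF-kappaB in endothelial cells. The RefSeq window of 250 bases before to 50 after the gene's start (GRCm38.p6, chr10:79664309-79664608, plus strand) held 2 matches to the NF-kappaB consensus, both on the opposite strand and in capitals in the line below. A match to it was found on either strand in 8.46% of all 32851 promoter windows, and it is a description of the letters and not a site. Of the 9 HEC markers with a window, 1 held a match (11.1%), Madcam1 itself.
Madcam1: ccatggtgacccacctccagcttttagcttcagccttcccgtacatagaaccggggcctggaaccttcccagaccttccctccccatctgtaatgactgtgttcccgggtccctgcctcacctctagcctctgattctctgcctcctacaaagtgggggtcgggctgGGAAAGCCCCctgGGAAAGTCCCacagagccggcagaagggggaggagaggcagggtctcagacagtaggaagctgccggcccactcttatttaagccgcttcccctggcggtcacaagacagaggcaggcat

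The pathway's own genes were called at a share near that of all genes (7.87% higher and 7.31% lower). By position they leaned higher: all 4 HEC arrays lay above both capillary arrays in 9 of the 16 measured, beside 18.6% of all genes. They lay below both in 1, beside 18.5% of all genes. Of 16 lymphotoxin receptor and NF-kappaB genes measured, 2 were called higher and 0 lower, Tnfrsf11a, the RANK receptor, by 1.61 and Nfkbie, an inhibitor of NF-kappaB, by 0.89. Tnfrsf11a read 1.63, 1.70, 1.59 and 1.73 on the HEC arrays, against 0.02 and 0.09 on the capillary arrays, which separated the groups by more than 1 log2 unit. Relb, the subunit of the noncanonical pathway, had a difference of 0.33 (adjusted p = 0.0632), and Nkx2-3, the homeobox factor known to be needed for Madcam1, had 0.57 ± 0.19 (adjusted p = 0.0582). Nfkbie did not pass with capillary array 1 left out (adjusted p = 0.0568). After a further quantile normalization the list gave 4 higher calls and 1 lower.

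Adhesion molecules and chemokine genes divided between the cell types. Sele, E-selectin, read 2.29, 2.11, 2.71 and 2.67 on the HEC arrays, against 0.28 and -0.04 on the capillary arrays, and was 5.02-fold higher (log2 difference 2.33 ± 0.30 SE, adjusted p = 1.95e-05). Vcam1, the ligand of alpha4 integrins, rose by 0.86 (adjusted p = 0.021), while Icam2 and Alcam did not pass (differences -0.31 and 0.30). Without capillary array 1, and likewise without capillary array 2, 2 of the list's 3 higher calls were made. Vcam1 did not pass with capillary array 1, capillary array 2, MAdCAM1+ array 3 or double-positive array 1 left out (adjusted p up to 0.139). Of 18 chemokines measured, 4 were called higher and 2 lower, beside 7.87% and 7.31% over all genes. The CXCR3 ligands Cxcl9, Cxcl10 and Cxcl11, which draw activated T cells, rose by 0.75, 1.57 and 1.74, and Ccl20, the ligand of CCR6, by 1.38 (adjusted p = 0.0416). Cxcl10 read 0.76, 0.46, 0.67 and 0.60 on the HEC arrays, against -0.83 and -1.07 on the capillary arrays. Without capillary array 2, 2 chemokines were called higher. Ccl20 did not pass with capillary array 1, capillary array 2, MAdCAM1+ array 3 or double-positive array 1 left out (adjusted p up to 0.22). Cxcl9 did not pass with capillary array 2 left out (adjusted p = 0.139). Cxcl13 and Ccl19, lymphoid chemokines made mainly by stromal cells, had differences of 0.46 and 0.25 that did not pass. Cxcl12, the ligand of CXCR4, read -3.64, -4.08, -3.59 and -3.37 on the HEC arrays, against -0.18 and -0.01 on the capillary arrays, and was 11.9-fold lower (log2 difference -3.58 ± 0.14 SE, adjusted p = 1.79e-11). Its receptor gene Cxcr4 was 4.79-fold lower (log2 difference -2.26 ± 0.24 SE, adjusted p = 2.59e-06), and Cx3cl1, fractalkine, was 9.8-fold lower (log2 difference -3.29 ± 0.18 SE, adjusted p = 7.14e-10). Cxcl12 and Cxcr4, a ligand and its receptor, were thus both lower in HEC. The atypical chemokine receptors, which bind chemokines without signalling through G proteins, split: Ackr1, the Duffy receptor of venules, was 8.33-fold higher (log2 difference 3.06 ± 0.20 SE, adjusted p = 8.53e-09) and Ackr2 11.9-fold higher (log2 difference 3.57 ± 0.21 SE, adjusted p = 1.32e-09), while Ackr3, which takes up CXCL12, fell by 1.61 (adjusted p = 4.95e-07). Ackr2 read 3.64, 3.44, 3.37 and 2.81 on the HEC arrays, against -0.20 and -0.30 on the capillary arrays. Gpr182, an atypical receptor of sinusoidal and lymphatic endothelium, rose by 2.24, and Ackr4 had -0.27 and did not pass.

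Venous genes were mostly higher in HEC and arterial genes lower. Of 12 venous genes, 9 were called higher and 2 lower (median 1.46), beside 7.87% and 7.31% over all genes. Of 19 arterial genes, 0 were called higher and 16 lower (median -1.64). Nr2f2, the nuclear receptor COUP-TFII that sets venous identity, read 0.89, 1.24, 0.97 and 1.25 on the HEC arrays, against -1.13 and -0.81 on the capillary arrays, and was 4.17-fold higher (log2 difference 2.06 ± 0.16 SE, adjusted p = 6.57e-08). Vwf, von Willebrand factor, read 0.69, 1.43, 1.77 and 2.18 on the HEC arrays, against -0.80 and -0.62 on the capillary arrays, and rose by 2.23. Lrg1, a secreted glycoprotein of venules, rose by 2.93 and Ephx2, an epoxide hydrolase, by 1.90. The apelin receptor Aplnr, also on the venous list, fell by 2.23 (adjusted p = 2.15e-08). Efnb2, the arterial ephrin, read -0.81, -0.53, -0.60 and -0.53 on the HEC arrays, against 3.06 and 3.49 on the capillary arrays, and was 14.9-fold lower (log2 difference -3.90 ± 0.14 SE, adjusted p = 5.21e-12). Sema3g, an arterial semaphorin, read -0.34, -0.01, 0.00 and -0.28 on the HEC arrays, against 3.29 and 3.94 on the capillary arrays, and the gap junction gene Gja5, connexin 40, read -0.45, -0.32, -0.24 and -0.32 on the HEC arrays, against 2.00 and 3.08 on the capillary arrays. The HEC arrays were below both capillary arrays in each. Sox17, an arterial transcription factor, read 0.07, -0.18, 0.01 and -0.04 on the HEC arrays, against 1.65 and 1.97 on the capillary arrays and fell by 1.84. The Notch pathway, which drives arterial fate, gave more lower than higher calls: 10 of 18 members were lower and 1 was higher (median -0.59). Ligands (Jag2 -2.80, Dll4 -1.08), the receptor Notch4 (-2.53) and the targets Hey1 (-3.49) and Nrarp (-1.54) all fell. Hey1, a transcriptional repressor, read -0.94, -1.13, -1.15 and -0.77 on the HEC arrays, against 2.54 and 2.46 on the capillary arrays. Notch2 and Adam10, the protease that cleaves the receptors, did not pass (differences 0.56 and -0.38). Of 22 genes of VEGF, angiopoietin and apelin signalling, 16 were lower and 0 higher. Esm1, a secreted proteoglycan of tip cells, read -0.23, 0.10, 0.00 and -0.12 on the HEC arrays, against 2.55 and 3.42 on the capillary arrays, and was 8.27-fold lower (log2 difference -3.05 ± 0.20 SE, adjusted p = 5.55e-09). The VEGF receptors Kdr and Flt1 fell by 1.05 and 1.40, their coreceptor Nrp1 by 2.37, and Tek, the angiopoietin receptor, by 1.06. Plvap, the protein of fenestral diaphragms, had -0.24 and did not pass (adjusted p = 0.0833). These shifts lay beside the general endothelial genes, of which 1 of 15 was higher and 9 lower. Pecam1 differed by -0.06, Egfl7 by 0.12, Eng by -0.12 and Erg by 0.33, none past the threshold, and Cdh5, VE-cadherin, fell by 0.40. Robo4, Tie1 and Esam fell by 0.50, 0.50 and 0.60. Without capillary array 1, 6 of this list were called lower. Cdh5, Robo4 and Esam did not pass with capillary array 1 left out (adjusted p = 0.0681, 0.0699 and 0.0673). Tie1 did not pass with capillary array 2, MAdCAM1+ array 3 or double-positive array 1 left out (adjusted p up to 0.27).

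Most lipid genes ran in opposite directions by their role. Of 20 genes of fatty acid uptake, 14 were lower in HEC and 2 higher (median -1.33), beside 7.31% and 7.87% over all genes. The 2 higher ones were Meox2, described below, and Lpl, lipoprotein lipase itself, which rose by 2.37 and was named after its value was seen. Besides Cd36, Car4, Rbp7, Aqp7 and Gpihbp1, the lipid chaperone Fabp4 read -0.05, -0.43, 1.22 and 1.21 on the HEC arrays, against 3.26 and 3.08 on the capillary arrays, and was 6.43-fold lower (log2 difference -2.69 ± 0.21 SE, adjusted p = 5.02e-08). The MAdCAM1+ arrays stood above the double-positive ones for Fabp4, but below the capillary arrays. Of 31 genes that build sterols and fatty acids, 19 were higher and 0 lower (median 0.61). Fads2, a fatty acid desaturase, read 1.53, 1.33, 1.50 and 1.15 on the HEC arrays, against -0.96 and -0.95 on the capillary arrays, and was 5.05-fold higher (log2 difference 2.33 ± 0.18 SE, adjusted p = 5.58e-08). Sqle, squalene epoxidase of the cholesterol branch, read 1.84, 1.44, 1.71 and 1.30 on the HEC arrays, against -0.52 and -0.10 on the capillary arrays, and rose by 1.88 ± 0.20. Fasn, fatty acid synthase, rose by 1.67, Scd1, stearoyl-CoA desaturase, by 2.04, Elovl6, a fatty acid elongase, by 2.14, and Sc5d, a late sterol desaturase, by 1.52. The fatty acid arm and the sterol arm were thus both represented. Srebf1, which encodes a transcription factor of this pathway, had -0.33 and did not pass (adjusted p = 0.0972). Srebf2, which encodes a related factor and was named after its value was seen, was called higher, by 0.34. Ch25h, which makes 25-hydroxycholesterol, read 3.15, 3.23, 2.88 and 2.93 on the HEC arrays, against -0.06 and 0.56 on the capillary arrays, and was 6.94-fold higher (log2 difference 2.79 ± 0.25 SE, adjusted p = 3.58e-07). Cyp27a1, another sterol hydroxylase, rose by 2.84, and Hsd3b7, which breaks down EBI2 ligands, by 1.20 (adjusted p = 0.000226). The receptor gene Gpr183 (EBI2) had 0.28 and did not pass.

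Many genes of the secretory pathway and several of secreted defence proteins were higher in HEC. Of 61 secretory pathway and unfolded protein response genes, 33 were higher and 2 lower (median 0.59), beside 7.87% and 7.31% over all genes. The differences were moderate: Kdelr3, a retrieval receptor of endoplasmic reticulum proteins, rose by 2.21, Sec11c, a signal peptidase subunit, by 1.42, the COPII coat genes Sec24d and Sec23b by 1.18 and 1.13, and Hyou1, a chaperone, by 1.14. Kdelr3 read 2.09, 1.72, 1.85 and 1.34 on the HEC arrays, against -0.50 and -0.43 on the capillary arrays. Lman1, a cargo receptor, and Dnajb9, a cochaperone, did not pass (differences 0.59 and 0.42). Sec11c did not pass with capillary array 1 left out (adjusted p = 0.06). Of 21 protease inhibitors and ITIH genes, 11 were higher and 5 lower. Serpina1c, an alpha1-antitrypsin, and Itih3 rose by 3.79 and 3.60, and Timp1, a metalloprotease inhibitor, by 2.05. Timp4 read 4.90, 4.79, 4.45 and 4.40 on the HEC arrays, against 1.34 and 0.04 on the capillary arrays, with the capillary arrays more than 1 log2 unit apart, and its difference of 3.94 ± 0.69 had the widest error of those named here. Itih3 read 3.60, 3.85, 3.03 and 3.10 on the HEC arrays, against -0.22 and -0.20 on the capillary arrays, which is the reverse of its relative Itih5. Of 18 complement genes, 6 were higher and 1 lower. Cfb, complement factor B, read 2.80, 2.88, 2.69 and 2.60 on the HEC arrays, against -1.28 and -0.96 on the capillary arrays, and was 14.5-fold higher (log2 difference 3.86 ± 0.16 SE, adjusted p = 2.77e-11). Cd55, which protects cells from complement, rose by 2.80, C1ra by 1.72 and C2 by 0.83. Serping1, the C1 inhibitor, fell by 0.98 (adjusted p = 0.0438). Of 18 Toll-like and innate sensing genes, 7 were higher, among them Lbp, which carries bacterial lipopolysaccharide (1.37), its receptor genes Cd14 (1.01) and Tlr4 (0.64), and Ly96 (0.95), and 1 was lower, the kinase Irak2 (-1.74). Serping1 did not pass with capillary array 1, capillary array 2, MAdCAM1+ array 3 or double-positive array 1 left out (adjusted p up to 0.39). Tlr4 did not pass with capillary array 1 left out (adjusted p = 0.19). Ly96 did not pass with capillary array 2 left out (adjusted p = 0.0525).

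Vasoactive, clotting, guidance and matrix lists gave more lower than higher calls in HEC. Of 23 genes of nitric oxide, endothelin and natriuretic peptide signalling, 12 were lower and 1 higher, beside 7.31% and 7.87% over all genes. Besides Ednrb, Npr3, the natriuretic clearance receptor, fell by 2.82, Npr2, a natriuretic peptide receptor, by 2.48, and Ramp3, an adrenomedullin coreceptor, by 2.88. Npr3 read -0.39, -0.19, -0.17 and -0.24 on the HEC arrays, against 2.60 and 2.53 on the capillary arrays. In the clotting list, 10 of 21 genes were lower. Thbd, thrombomodulin, and Gas6 fell by 2.57 and 3.20, and Plat, tissue plasminogen activator, by 1.20. The 2 that rose were Vwf and F8, coagulation factor VIII (1.33 ± 0.31). F8 did not pass with capillary array 1 left out (adjusted p = 0.0719). Of 36 guidance genes, 19 were lower and 6 higher. The Slit receptors Robo1 and Robo2 rose by 2.90 and 3.73, Robo1 reading 2.73, 2.66, 2.09 and 2.16 on the HEC arrays, against -0.38 and -0.61 on the capillary arrays, while the netrin receptor Unc5b fell by 3.09. Of 33 basement membrane and integrin genes, 15 were lower and 4 higher (2 without capillary array 1). Fn1, fibronectin, read -3.82, -3.61, -3.71 and -3.60 on the HEC arrays, against 0.27 and -0.23 on the capillary arrays, and was 13.1-fold lower (log2 difference -3.71 ± 0.19 SE, adjusted p = 2.65e-10). Lama4, Lama3, Lamb1, laminin chains, and Nid2, a nidogen, fell by 3.41, 2.85, 2.06 and 2.93. Of 39 TGF-beta and BMP signalling genes, 13 were lower and 3 higher, with a median difference of -0.13. Among the growth factors, Tgfb2, Bmp6 and Inhbb fell by 2.91, 2.61 and 2.60. Id1 and Id3, of the same list, fell by 1.55 and 1.74. The junction list held 9 lower genes of 25, among them Jup, plakoglobin (-2.97), and Cldn5, claudin-5 (-2.21), and 1 higher, Cdh2, N-cadherin (2.08). Ptgs2, cyclooxygenase-2, read 0.74, 0.00, 0.90 and 0.23 on the HEC arrays, against -2.57 and -2.08 on the capillary arrays, and was 6.93-fold higher (log2 difference 2.79 ± 0.32 SE, adjusted p = 5.48e-06). Tnfsf15, a TNF family cytokine of endothelium, and Csf3, the granulocyte growth factor, rose by 2.70 and 1.91, while Il6 and Csf1 fell by 2.60 and 1.89. Sphk1, which makes sphingosine 1-phosphate, rose by 1.63, and the lipid phosphatases Plpp1 and Plpp3 fell by 3.01 and 1.77. Stra6, the retinol uptake receptor, read 2.71, 2.59, 2.52 and 2.32 on the HEC arrays, against -0.60 and -0.86 on the capillary arrays and rose by 3.26 ± 0.18, while Dhrs3, which turns retinal back to retinol, fell by 2.31. The 47 endothelial transcription factors gave 5 higher and 17 lower calls. Meox2 rose by 1.61, and Tcf15, which pairs with it in fatty acid uptake of heart and muscle capillaries, fell by 1.54.

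**Figure D2:**
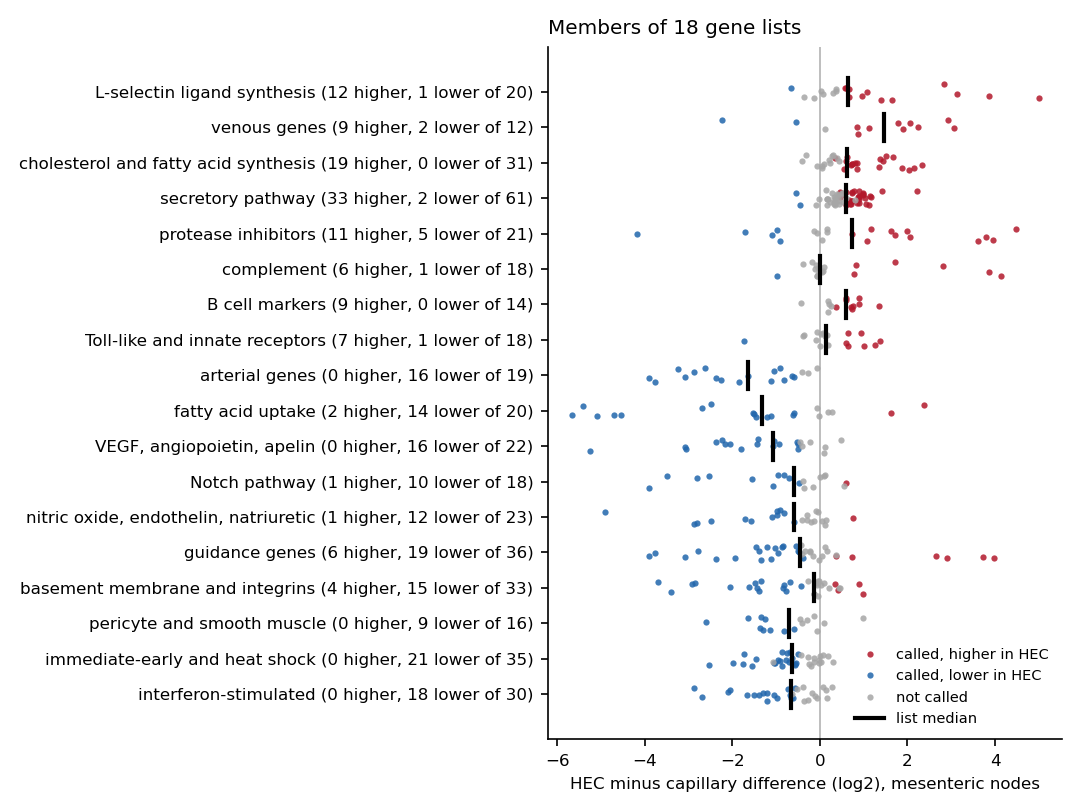
HEC minus capillary differences (log2, x axis) of the measured members of 18 gene lists (y axis) in mesenteric nodes; each point is 1 gene, coloured by whether limma called it at an adjusted p below 0.05, and the black bar is the list median. Arterial genes had a median of -1.64 with 16 of 19 lower, and venous genes a median of 1.46 with 9 of 12 higher.

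Markers of other cell types were examined because each gate can hold some. For scale, 7.87% of all genes were called higher in HEC and 7.31% lower, so a list with 1 or 2 calls is not set apart by its count. Of 14 B cell markers, 9 were higher in HEC and 0 lower (median 0.59), and the mean over the list ran from 0.299 to 0.506 on the HEC arrays, against -0.134 to -0.058 on the capillary arrays. Spib, a B cell transcription factor, rose by 1.36, Cd79b by 0.90, Ms4a1 (CD20) by 0.88 and Cd79a by 0.77, while Cd22 and Cr2 did not pass (0.26 and 0.18). Without capillary array 1, 3 of these markers were called, and without capillary array 2, 4. The MHC class II chaperone Cd74, which B cells also make, rose by 1.29 and H2-Aa by 0.52, beside the same B cell markers, and 1 of the 4 higher class II genes was called without capillary array 1. Cd79a did not pass with capillary array 1, capillary array 2, MAdCAM1+ array 3 or double-positive array 2 left out (adjusted p up to 0.296). Cd79b did not pass with capillary array 2 left out (adjusted p = 0.0848). Ms4a1 did not pass with capillary array 1 left out (adjusted p = 0.058). H2-Aa did not pass with capillary array 1, MAdCAM1+ array 4 or double-positive array 2 left out (adjusted p up to 0.47). The part of B cells in these calls was not tested. Of 14 T cell markers, 2 were higher, Ccr7 (1.04) and Cd3g (0.70), and Cd3e had 0.29 and did not pass. Of 25 myeloid and dendritic cell markers, 0 were higher and 1 lower. Of 16 fibroblastic reticular cell markers, 1 was higher, Bst1 (1.79), and 1 lower, Pi16 (-0.59). Of 16 pericyte and smooth muscle genes, 9 were lower in HEC and 0 higher (median -0.71), with a list mean from -0.367 to -0.302 on the HEC arrays, against 0.397 to 0.507 on the capillary arrays. Rgs5, a pericyte gene, read -1.96, -2.06, -1.57 and -1.45 on the HEC arrays, against 0.84 and 0.85 on the capillary arrays, and was 6.07-fold lower (log2 difference -2.60 ± 0.26 SE, adjusted p = 9.22e-07). Acta2, smooth muscle actin, read -0.91, -0.78, -0.62 and -0.68 on the HEC arrays, against 0.92 and 0.87 on the capillary arrays, and fell by 1.64, and Pdgfrb, the receptor of pericytes, by 1.37. The capillary arrays thus carried more of these transcripts. They moved with the lower laminin and Notch genes above, and their part in those results was not tested. Lymphatic markers gave calls in both directions (4 of 14 higher, 2 lower). Lyve1, a hyaluronan receptor of lymphatic and some venous endothelium, read 4.24, 3.84, 2.75 and 2.80 on the HEC arrays, against 0.04 and 0.21 on the capillary arrays, and was 9.73-fold higher (log2 difference 3.28 ± 0.41 SE, adjusted p = 1.52e-05), and Stab2, a scavenger receptor, rose by 1.96. Prox1, the lymphatic master regulator, had -0.47 (adjusted p = 0.26), and Flt4, VEGF receptor 3, fell by 1.81. Of 22 intestinal epithelial genes, 1 passed, Reg3g (1.96), an antimicrobial lectin. Reg3g did not pass with capillary array 1 left out (adjusted p = 0.0659).

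**Figure D3:**
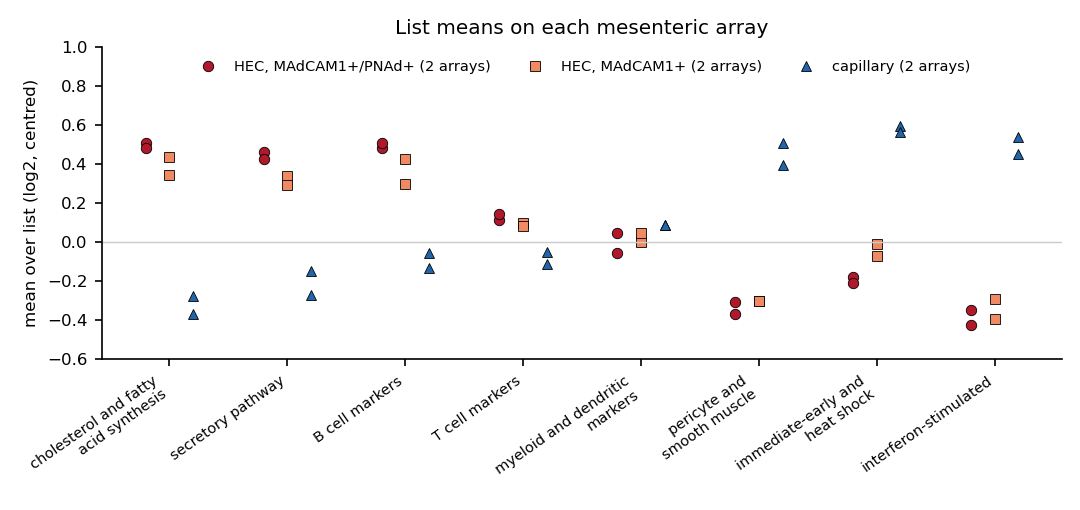
Mean deposited value (log2, centred, y axis) over the measured members of 8 gene lists (x axis) on each of the 6 mesenteric arrays; each point is 1 array. The B cell mean ran from 0.299 to 0.506 on the HEC arrays, against -0.134 to -0.058 on the capillary arrays, and the pericyte and smooth muscle mean from -0.367 to -0.302 on the HEC arrays, against 0.397 to 0.507 on the capillary arrays.

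Many immediate-early and interferon-stimulated genes were lower in HEC. Over all genes the shares called were 7.31% lower and 7.87% higher. Of 35 immediate-early and heat shock genes, 21 were lower and 0 higher (median -0.63), and the list mean ran from -0.208 to -0.012 on the HEC arrays, against 0.566 to 0.593 on the capillary arrays. Nr4a3, an orphan nuclear receptor induced by stimulation, read -1.15, -1.94, -1.0 and -1.19 on the HEC arrays, against 1.55 and 0.90 on the capillary arrays, and was 5.83-fold lower (log2 difference -2.54 ± 0.23 SE, adjusted p = 2.93e-07). Nr4a1 read -1.15, -1.51, -0.60 and -0.80 on the HEC arrays, against 1.02 and 0.91 on the capillary arrays, and Egr3, a zinc finger factor, read -0.47, -0.65, -0.06 and -0.11 on the HEC arrays, against 1.56 and 1.30 on the capillary arrays. They fell by 1.98 and 1.75, and in both the MAdCAM1+ arrays stood above the double-positive arrays. These genes are known to respond to tissue dissociation and sorting, and how the sorts differed is not given in the sources used here. Of 30 interferon-stimulated genes, 18 were lower and 0 higher (median -0.65), and the list mean ran from -0.425 to -0.293 on the HEC arrays, against 0.45 to 0.541 on the capillary arrays. Rsad2, the antiviral enzyme viperin, read -0.94, -0.93, -0.89 and -0.63 on the HEC arrays, against 1.82 and 2.22 on the capillary arrays, and was 7.32-fold lower (log2 difference -2.87 ± 0.21 SE, adjusted p = 2.69e-08). Ifit2 and Ifit1, antiviral RNA-binding proteins, read -1.98, -1.70, -2.11 and -1.49 on the HEC arrays, against 0.67 and 1.06 on the capillary arrays, and -1.59, -1.15, -1.39 and -1.19 on the HEC arrays, against 1.04 and 0.48 on the capillary arrays. They fell by 2.68 and 2.09, Ifit3 by 2.06, Cmpk2, a mitochondrial nucleotide kinase, by 1.66 and Irf7, a transcription factor of the response, by 1.50. Irf9, Stat2 and Oas1a did not pass (-0.37, -0.40 and -0.63). The CXCR3 ligands described above, which interferon gamma also induces, stood apart from this list and were higher in HEC.

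The promoters of 3 of these genes are shown because 18 of the 30 list members were lower and the class shares a known DNA element, the interferon-stimulated response element. The letters searched were TTTCNNTTTC on either strand, with N any base. They occurred in 3.44% of all 32851 promoter windows of the same length and in the windows of 12 of the 21 measured list members that had one. Of the 13 lower members with a window, 6 held it (46.2%), a smaller share than the 57.1% of all list members with a window. The 3 shown are among these 6, while the windows of Ifit2, Cmpk2 and Irf7, also lower, held no match. The windows, from RefSeq on GRCm38.p6, are chr19:34640639-34640938, plus strand, for Ifit1, chr19:34583279-34583578, plus strand, for Ifit3, and chr12:26456403-26456702, minus strand, for Rsad2, with each match in capitals.
Ifit1: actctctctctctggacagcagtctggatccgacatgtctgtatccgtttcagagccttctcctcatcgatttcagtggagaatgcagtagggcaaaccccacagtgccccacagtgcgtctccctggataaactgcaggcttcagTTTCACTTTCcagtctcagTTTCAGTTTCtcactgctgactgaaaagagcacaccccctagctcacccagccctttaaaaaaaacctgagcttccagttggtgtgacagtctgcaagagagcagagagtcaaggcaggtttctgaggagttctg
Ifit3: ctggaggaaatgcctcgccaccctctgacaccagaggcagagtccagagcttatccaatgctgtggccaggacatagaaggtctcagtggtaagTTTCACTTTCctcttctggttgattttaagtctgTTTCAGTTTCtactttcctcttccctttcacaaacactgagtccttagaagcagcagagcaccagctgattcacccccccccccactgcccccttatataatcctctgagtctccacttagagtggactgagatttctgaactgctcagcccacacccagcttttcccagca
Rsad2: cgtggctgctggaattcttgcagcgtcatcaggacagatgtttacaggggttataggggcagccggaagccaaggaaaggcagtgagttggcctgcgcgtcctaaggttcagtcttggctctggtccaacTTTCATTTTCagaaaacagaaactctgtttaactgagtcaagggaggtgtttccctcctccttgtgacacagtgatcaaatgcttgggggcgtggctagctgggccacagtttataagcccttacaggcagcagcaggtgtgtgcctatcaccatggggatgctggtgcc

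Ifit1 and Ifit3 each held 2 matches and Rsad2 held 1, all on the strand of the gene, upstream of its start. A match is a description of the window and says nothing about binding in these cells.

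Few genes were called between the HEC gates. Against capillary cells, 2656 genes were called for the double-positive gate (13.3% of all genes) and 2128 for the MAdCAM1+ gate (10.7%). Both comparisons use the same capillary arrays. Of the calls, 1923 were made in both gates with the same sign, 732 in the double-positive gate alone and 204 in the MAdCAM1+ gate alone, and 1 was called in both with opposite signs. A direct test of the gates called 4 genes (0.0201% of all genes), each lower in the double-positive gate. An unadjusted p below 0.05 was found for 335 genes, a smaller share than that threshold gives by chance. With 2 arrays in each gate, the small count of calls does not show that the gates were alike. Myof, myoferlin, a membrane repair protein, read -0.63, -0.94, 0.73 and 0.99 on the HEC arrays, against -2.01 and -2.19 on the capillary arrays. The double-positive arrays lay between the MAdCAM1+ and the capillary arrays, and the gate difference was -1.65 ± 0.17 (adjusted p = 0.000296). Cytl1, a secreted cytokine-like protein, read -0.42, -0.24, 1.11 and 0.99 on the HEC arrays, against 0.29 and 0.16 on the capillary arrays. It was the gene with opposite signs, -0.56 for the double-positive and 0.83 for the MAdCAM1+ gate against capillary cells, with a gate difference of -1.39 ± 0.14 (adjusted p = 0.000287). Fbln2, a matrix fibulin, read -0.27, -0.52, 0.90 and 0.88 on the HEC arrays, against 0.77 and 0.92 on the capillary arrays. The MAdCAM1+ arrays fell among the capillary values and the double-positive arrays below them (gate difference -1.29 ± 0.16, adjusted p = 0.00249). Tacr1, the substance P receptor, read -0.14, 0.20, 1.02 and 1.37 on the HEC arrays, against -0.28 and -0.10 on the capillary arrays, with a gate difference of -1.17 ± 0.17 (adjusted p = 0.0178). Without double-positive array 2 Fbln2 did not pass, nor did Tacr1 without double-positive array 1 or MAdCAM1+ array 4, and neither passed with the replicate number as a block. In a fit of the 4 HEC arrays alone none of the 4 genes was called. The highest adjusted p of limma over the alternatives was 0.184 for Myof, Cytl1 and Fbln2. The gate difference of Tacr1 lay between -1.34 and -0.99 over the alternatives. The sulfotransferase of the PNAd epitope, Chst4, had a gate difference of 1.49 ± 0.45 with a 95% interval of 0.54 to 2.43, and did not pass (adjusted p = 1.0). Its 2 double-positive arrays lay above both MAdCAM1+ arrays. Madcam1 differed between the gates by -0.14 (95% interval -0.73 to 0.45), Glycam1 by -0.14 (-1.43 to 1.16), Fut7 by 0.17 (-0.29 to 0.63) and Gcnt1 by 0.31 (-0.26 to 0.88). Fabp4 had -1.46 ± 0.24 (adjusted p = 0.0534) and Lyve1 1.27 ± 0.47 (adjusted p = 1.0), neither past the threshold.

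**Figure D4:**
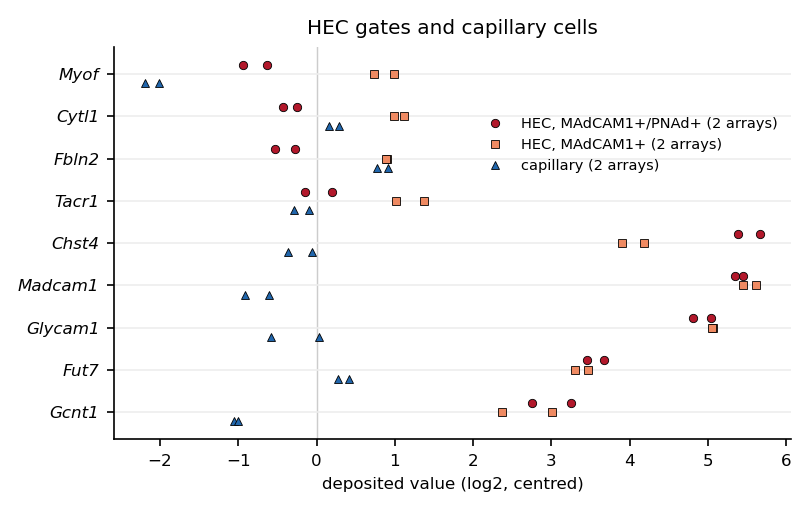
Deposited centred log2 values (x axis) of the 4 genes called between the HEC gates and of 5 addressin genes (y axis) on the 6 mesenteric arrays; each point is 1 array. Myof read -0.94 and -0.63 in double-positive HEC, 0.73 and 0.99 in MAdCAM1+ HEC and -2.19 and -2.01 in capillary cells.

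The HEC difference of mesenteric nodes was then set against that of the other tissues, each with its own capillary arrays. The mesenteric minus peripheral test called 83 genes (0.416% of all genes), 29 with the more positive mesenteric value and 54 with the more negative one. After a further quantile normalization the split was 40 and 49. The count was 35 without mesenteric capillary array 1, 38 without capillary array 2, 52 without double-positive array 2 and 46 without peripheral capillary arrays 1 and 2. Of the 83, 42 were called in both tissues with the same sign and 12 with opposite signs. Glycam1 differed by 5.27 ± 0.53 in mesenteric and 1.51 ± 0.47 in peripheral nodes (interaction 3.76 ± 0.71, adjusted p = 0.0229). The interaction ran from 2.05 to 4.61 over 21 alternatives, and the call was lost in 8 of them. Among the 8 were the fits without each mesenteric capillary array and without peripheral capillary array 2. Madcam1 differed by 6.23 ± 0.24 in mesenteric and 2.93 ± 0.21 in peripheral nodes (interaction 3.30 ± 0.32, adjusted p = 8.81e-05), and MAdCAM-1 was the antigen that both mesenteric gates used. Lrrc55, an auxiliary subunit of potassium channels, differed by 0.20 ± 0.22 and -1.90 ± 0.19, Lgals1, galectin-1, by 0.72 ± 0.19 and -0.88 ± 0.17, and Cd109, a GPI-anchored protein, by -1.32 ± 0.18 and -2.88 ± 0.16. The signs were opposite in mesenteric and peripheral nodes for Lgals1 and the same for Cd109, and Lrrc55 passed the test in peripheral nodes alone. Without mesenteric capillary array 1, the tissue tests of Cd109 and Lgals1 did not pass (adjusted p = 0.0585 and 0.0697). For Lgals1, the HEC difference within mesenteric nodes did not pass with capillary array 1, capillary array 2 or MAdCAM1+ array 4 left out. It lay between 0.57 and 0.81 in these fits. On the negative side, Scgb3a1, a secretoglobin, differed by -3.69 ± 0.37 in mesenteric and -0.89 ± 0.32 in peripheral nodes (interaction -2.80 ± 0.49, adjusted p = 0.013), and read 0.57, 0.33, -0.38 and 0.06 on the HEC arrays, against 3.77 and 3.90 on the capillary arrays, in mesenteric nodes. Pdlim3, an actin-associated protein, differed by -0.63 ± 0.20 and 1.79 ± 0.18, and Slc7a6, an amino acid transporter, by -0.65 ± 0.15 and 1.64 ± 0.13, both lower in mesenteric and higher in peripheral HEC. F8 rose in both, by 1.33 and 3.58, with an interaction of -2.25 ± 0.42. Without either mesenteric capillary array, the tissue tests of F8 and Scgb3a1 did not pass (adjusted p up to 0.136 and 0.122). The tissue tests of Pdlim3 and Slc7a6 were called in all 21 alternatives. The HEC difference of Pdlim3 within mesenteric nodes did not pass with either mesenteric capillary array left out. Nor did it pass without MAdCAM1+ array 3, MAdCAM1+ array 4 or double-positive array 2. In these fits it lay between -0.65 and -0.54. The HEC difference of Slc7a6 within mesenteric nodes did not pass with mesenteric capillary array 1 left out (log2 difference -0.62).

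The mesenteric minus Peyer's patch test called 150 genes (0.752% of all genes), 87 more positive and 63 more negative in mesenteric nodes, and 73 and 83 without mesenteric capillary array 1 or 2. Chst4 had a mesenteric difference of 5.0 ± 0.39 and a Peyer's patch difference of 2.14 ± 0.36 (interaction 2.86 ± 0.53, adjusted p = 0.0135). The call was lost without either mesenteric capillary array, with an interaction of 2.71 to 3.09 over the alternatives. The mesenteric value of Chst4 is a mean over both gates, and the double-positive gate was sorted on PNAd, whose sulfate this enzyme adds. Its double-positive arrays lay above both MAdCAM1+ arrays, a gate difference that did not pass. Clca3a1, a member of the calcium-activated chloride channel regulator family, differed by 1.70 ± 0.30 and -0.64 ± 0.28. Without mesenteric capillary array 1, this tissue test and that of Rbp7, described next, did not pass (adjusted p = 0.0786 and 0.147). Plat, Pcx, pyruvate carboxylase, and Cyp26b1, which degrades retinoic acid, had smaller negative differences in mesenteric nodes (-1.20, -0.58 and -0.22), against -3.84, -3.10 and -2.80 in Peyer's patches. Btnl9 had a mesenteric difference of -4.71 ± 0.13 and a Peyer's patch difference of -1.11 ± 0.12 (interaction -3.60 ± 0.18, adjusted p = 6.29e-09), and the call was kept in all 19 alternatives. Sema3c, a semaphorin, differed by -2.78 ± 0.16 and 0.06 ± 0.15, Rbp7 by -5.10 ± 0.36 and -2.46 ± 0.34, and Angptl4, an inhibitor of lipoprotein lipase, by -1.45 ± 0.37 and 1.96 ± 0.35. Angptl4 thus had opposite signs in mesenteric nodes and Peyer's patches. The tissue test of Angptl4 was called in all 19 alternatives. Its HEC difference within mesenteric nodes did not pass with capillary array 1 or 2 left out (log2 difference -1.55 and -1.35).

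Of 19 genes called in both tissue tests, 7 had the mesenteric difference on the same side of both other tissues, and 5 of these were the most negative in mesenteric nodes. Itih5 differed by -4.17 ± 0.18 in mesenteric nodes, -2.0 ± 0.16 in peripheral nodes and -0.72 ± 0.17 in Peyer's patches. Npr2 and Ifit1 differed by -2.48 and -2.09 in mesenteric nodes, against -1.12 and -0.83 in peripheral nodes and -1.53 and -0.77 in Peyer's patches. Pparg, a nuclear receptor of fat storage genes, and Oit3, both chosen after their values were seen, were the other two, at -2.49 and -1.66 in mesenteric nodes, against -1.55 and -0.67 in peripheral nodes and -1.28 and -0.10 in Peyer's patches. Myof and Cd109 had the most positive mesenteric value, Myof at 2.14, against 0.61 in peripheral nodes and 0.29 in Peyer's patches. The mesenteric value of Myof is a mean over gates that differed by -1.65 (double-positive minus MAdCAM1+). The calls of Itih5 and Myof were made in both tissue tests with each array left out in turn. Leaving out 1 array, mesenteric capillary array 1 among others, took the call from Npr2 in the Peyer's patch test, from Pparg in the peripheral test and from Ifit1 and Cd109 in both, and leaving out mesenteric capillary array 2 among others took it from Oit3 in the peripheral test (adjusted p up to 0.217 for Npr2, 0.369 for Pparg, 0.42 for Ifit1, 0.311 for Cd109 and 0.246 for Oit3).

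**Figure D5:**
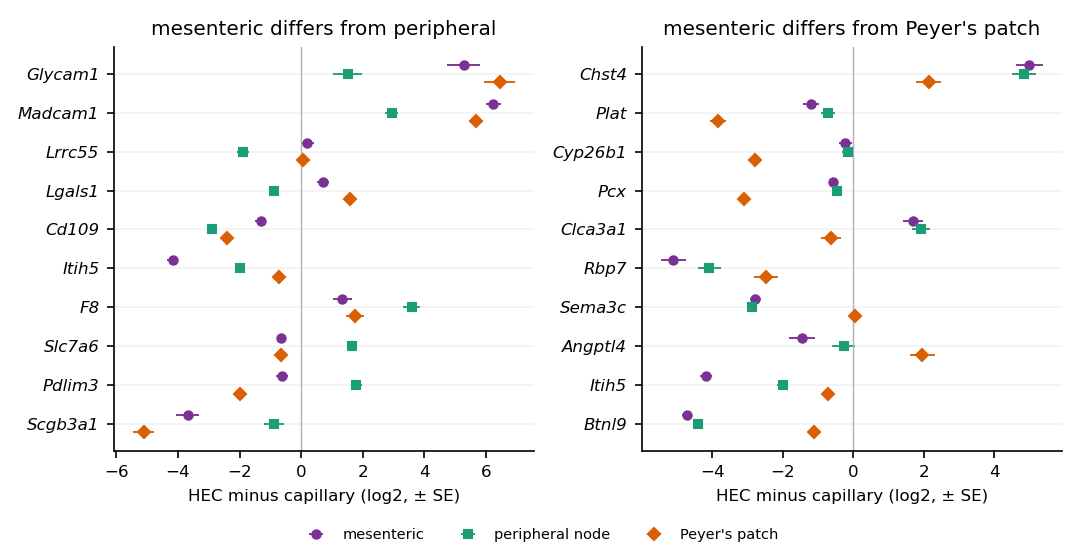
HEC minus capillary differences (log2, x axis, with the SE of the model as bars) in mesenteric nodes (4 HEC and 2 capillary arrays), peripheral nodes (4 and 3) and Peyer's patches (3 and 3) for the genes with the largest tissue tests (y axis). Madcam1 lay at 6.23 in mesenteric nodes, 2.93 in peripheral nodes and 5.68 in Peyer's patches, and Btnl9 at -4.71, -4.39 and -1.11.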

How the data were processed

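Whole-transcript arrays were hybridised with RNA of sorted endothelial cells, 19 arrays in 7 title groups. The authors deposited log2 expression values per probe set, and the submitters' processing notes name RMA and Partek. The values run from -4.09 to 6.13 and are centred for each probe set on a baseline that is not given in the sources used here, so no level and no signal over background can be read from them. The scale was taken as log2 from the values, and differences between arrays have the direction of the group labels. Of 28856 probe sets, 21789 were paired with a single gene symbol by the platform annotation. A further 1621 with several symbols and 5446 without a symbol were left out. Probe sets of the same gene were averaged (999 genes had more than 1), which left 19938 genes, with no filter on low values.

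One limma model (version 3.58.1 in R 4.3.3) with a mean for each of the 7 groups was fitted to all 19 arrays, and contrasts were tested with a two-sided moderated test and Benjamini-Hochberg adjustment over all genes, with calls at an adjusted p below 0.05. Errors are model SE. Comparisons between tissues and between gates were contrasts of that model. The procedure was tested on simulated data. Alternatives were another normalization, array weights, a robust prior, separate probe sets, only the compared groups, replicate number as a block and each array left out in turn.

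Genes named are the 12 largest called differences in each direction with no overlap between the mesenteric groups, the 5 largest in each direction of the gate and tissue tests, up to 6 called and 3 uncalled members of each of 57 gene lists and all members of the HEC, capillary and general endothelial lists. The members, gene lists and tests were chosen with earlier results of these data known. Promoter windows came from RefSeq. Tables and figures were made with Python 3.11.15, pandas 2.3.3 and matplotlib 3.10.9.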

Additional observations from a re-analysis of the deposited data

Results flagged for a closer look

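For 241 genes described here, the 4 mesenteric HEC arrays were searched for 1 array set apart from the other three by Dixon's ratio, and 11 genes had one, where chance gives about 5% of such groups. Cd74 read 1.09 on MAdCAM1+ array 4, against 1.18 to 1.19 on the other HEC arrays. Cxcl13 read 0.40 on double-positive array 2, against 0.76 to 0.80 on the other HEC arrays. Glycam1 read 4.81 on double-positive array 2, against 5.04 to 5.07 on the other HEC arrays. Igfbp3 read -2.96 on double-positive array 1, against -3.88 to -3.73 on the other HEC arrays. Kdr read -0.21 on double-positive array 1, against -0.02 to 0.00 on the other HEC arrays. Nrarp read -0.19 on double-positive array 2, against 0.09 to 0.15 on the other HEC arrays. Pdgfrb read -0.50 on MAdCAM1+ array 3, against -0.86 to -0.82 on the other HEC arrays. Pi16 read -0.11 on double-positive array 2, against -0.51 to -0.44 on the other HEC arrays. Rgcc read -1.59 on double-positive array 1, against -1.16 to -1.08 on the other HEC arrays. Rsad2 read -0.63 on MAdCAM1+ array 4, against -0.94 to -0.89 on the other HEC arrays. Slc6a6 read -0.25 on double-positive array 2, against -0.04 to 0.00 on the other HEC arrays. All of these genes except Cxcl13 were called between HEC and capillary cells, and in all 11 the outlying array lay on the same side of both capillary arrays as the other HEC arrays.

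Of the genes described here, 23 had an HEC difference that was called as unlike in mesenteric and peripheral nodes by limma's interaction test (mesenteric minus peripheral, log2). It was more positive in mesenteric nodes for Aplnr (1.55), Cd109 (1.56), Cytl1 (1.41), Glycam1 (3.76), Lgals1 (1.60) and Lrg1 (1.11). The same held for Lrrc55 (2.10), Madcam1 (3.30), Myof (1.52), Nid2 (0.76) and Stra6 (1.53). A more negative mesenteric difference was found for Dhrs3 (-1.81), F8 (-2.25), Ifit1 (-1.25), Itih5 (-2.17), Npr2 (-1.36) and Oit3 (-0.99). So it was for Pdlim3 (-2.42), Pf4 (-1.71), Pparg (-0.93), Scgb3a1 (-2.80), Slc7a6 (-2.29) and Sox17 (-0.64). The calls of the matrix gene Itih5 and the addressin gene Madcam1 were made in all 21 alternatives, that of the secretoglobin Scgb3a1 in 17, that of the mucin gene Glycam1 in 13 and that of the antiviral gene Ifit1 in 6.

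Between mesenteric nodes and Peyer's patches, 29 of the genes described here were called in the same kind of test (mesenteric minus Peyer's patch, log2). More positive mesenteric differences were those of Ackr3 (0.94), Cd109 (1.10), Chst1 (0.96), Chst4 (2.86), Clca3a1 (2.33), Cyp26b1 (2.58) and Esm1 (1.27). Others were Gja5 (1.21), Myof (1.85), Pcx (2.52), Pdlim3 (1.37) and Plat (2.64). More negative mesenteric differences were those of Angptl4 (-3.41), Aplnr (-2.27), Btnl9 (-3.60), Cx3cl1 (-1.12), Cxcl9 (-1.83), Gpihbp1 (-1.43), Gpr182 (-1.10), Ifit1 (-1.32) and Igfbp3 (-1.74). Further ones were Itih5 (-3.45), Npr2 (-0.95), Oit3 (-1.56), Pdk4 (-2.0), Pparg (-1.21), Rbp7 (-2.63), Rsad2 (-1.43) and Sema3c (-2.84). The sulfotransferase genes Chst1 and Chst4 stood on the positive side, and the capillary lipid genes Gpihbp1, Angptl4, Rbp7 and Pparg on the negative side. The mesenteric value of Chst4 is a mean over both gates, and the double-positive gate was sorted on PNAd.

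Between the HEC gates, Cytl1 (-1.39), Fbln2 (-1.29), Myof (-1.65) and Tacr1 (-1.17) differed (double-positive minus MAdCAM1+, log2), all lower in the double-positive gate. The mesenteric values of Cytl1 and Myof in the tissue tests above are thus means over unlike gates.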

How the results depend on the processing

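With 1 array left out in turn, the count between mesenteric HEC and capillary cells was 1791 to 2727 (lowest without capillary array 1), that of the double-positive gate against capillary cells 1645 to 2048 (1645 without capillary array 1, 1723 without double-positive array 1) and that of the MAdCAM1+ gate 1445 to 1638. The gate test gave 3 to 17 (17 without MAdCAM1+ array 4), the mesenteric minus peripheral test 35 to 87 (52 without double-positive array 2) and the mesenteric minus Peyer's patch test 73 to 220, both lowest without mesenteric capillary array 1. An array left alone in its group was assumed to vary like the other groups. A floor of 1 on the absolute log2 difference gave 931, 1005 and 878 calls against capillary cells and 96 against Peyer's patches, which follows from its construction. Array quality weights gave 10 calls between the gates, 155 against peripheral nodes and 1703 against Peyer's patches, where 1 Peyer's patch HEC array took a weight of 41.6; the cause of the other changes was not tested. With only the compared arrays in the fit the gate test of limma called 0 genes, with 572 at an unadjusted p below 0.05, and fewer arrays then estimate the spread. A fit without peripheral capillary arrays 1 and 2, chosen after the data were seen, gave 46 calls against peripheral nodes.

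Replicate numbers were used as a block although nothing in the labels says that they pair samples. Deviations of same-numbered HEC and capillary arrays correlated at 0.44 in mesenteric nodes (both pairs, which mirror each other), between -0.196 and 0.376 in peripheral nodes and between -0.397 and 0.065 in Peyer's patches, so across the series the numbers were not taken as pairs, while in mesenteric nodes the same-numbered arrays did deviate together. With the replicate block the counts were 2844 between HEC and capillary cells, 2890 and 1731 for the double-positive and MAdCAM1+ gates (2555 for the double-positive gate with the block within tissue), 2 between the gates, 74 against peripheral nodes and 101 against Peyer's patches. A block of mesenteric arrays 2 and 4 against 1 and 3, chosen after the data were seen, gave 2813 and 2259 for the gates against capillary cells, 6 between the gates, 84 against peripheral nodes and 178 against Peyer's patches.

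Of 241 genes described here, 205 were called between HEC and capillary cells, 177 of them in every alternative run, and 28 lost the call in at least 1, of which 16 lost it without 1 capillary array and nowhere else. Of 36 that were not called, 14 were called in at least 1 alternative. The number of called genes that changed sign in any alternative was 0. Precision rests on 2 capillary arrays. The values are centred for each probe set, so signal over background could not be judged.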

Other observations

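Energy and nutrient genes were not among the themes above. Of 19 glycolysis genes, 6 were higher in HEC and 0 lower (median 0.21), beside 7.87% and 7.31% over all genes. Ldhb, a lactate dehydrogenase subunit, read -0.16, -0.03, 0.19 and 0.38 on the HEC arrays, against -0.78 and -1.07 on the capillary arrays, and Pdk4, which restrains pyruvate entry into mitochondria, differed by 1.25 ± 0.19. The glycolytic genes Pkm, Tpi1 and Pgk1 differed by 0.63, 0.55 and 0.45. Among 25 glucose, lactate and amino acid transporters, 8 were higher and 5 lower (3 lower without capillary array 1). Slc1a5, a glutamine transporter, rose by 1.65, Slc2a1, the glucose transporter GLUT1, by 1.39 and Slc16a1, a lactate transporter, by 1.28, while Slc6a6, the taurine transporter, had -1.54. In the oxidative phosphorylation list 1 of 29 genes passed (3 without capillary array 2), and in the cell cycle list 1 of 41 was higher, the cyclin Ccnd1 (1.00), and 2 were lower, the cyclin Ccnd2 (-1.04) and the replication clamp Pcna (-0.56). Pcna and Pgk1 did not pass with capillary array 1, capillary array 2, MAdCAM1+ array 3, MAdCAM1+ array 4 or double-positive array 2 left out (adjusted p up to 0.214 and 0.339).

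Surface sugars, caveolae and signalling receptors gave calls in both directions, where 7.87% of all genes were called higher and 7.31% lower. Gne and Nans, which make sialic acid, rose by 0.97 and 1.33, and St6gal1, which caps glycans with alpha2,6-linked sialic acid, by 1.06, while St8sia4, a polysialyltransferase, had -1.22. St6gal1 read 0.06, 0.05, 0.71 and 0.53 on the HEC arrays, against -0.65 and -0.78 on the capillary arrays, with both MAdCAM1+ arrays above the double-positive ones. Cavin2, a caveolar coat protein, read -1.21, -0.89, -0.67 and 0.14 on the HEC arrays, against 1.70 and 1.85 on the capillary arrays, and Cav1, the main caveolin, differed by -0.62 ± 0.12. Ehd3, described above, and Pacsin2 were the 2 higher genes of that list of 14. Pacsin2 did not pass with capillary array 2 left out (adjusted p = 0.135). The actin list gave 13 lower calls of 30 (7 without capillary array 1), with Lmna, a nuclear lamin, at -1.85 ± 0.15 and Rhoc at -1.28 ± 0.12. Myl9, a myosin light chain of contractile cells, had -1.75 beside the lower pericyte and smooth muscle genes, whose part in it was not tested. The leukaemia inhibitory factor receptor Lifr and its partner Il6st rose by 1.33 and 1.13. Frizzled receptor Fzd6, Tspan12 and the Wnt antagonist Dkk2 fell by 1.86, 1.46 and 1.59. Prdm1, the transcriptional repressor Blimp-1, read -0.25, -0.05, 0.00 and 0.18 on the HEC arrays, against 2.61 and 2.48 on the capillary arrays and was 5.96-fold lower, and it was the lower gene of a plasma cell list with 2 higher and 1 lower of 8. The higher ones were Xbp1 (0.71) and Irf4 (0.50), transcription factors of plasma cells and other secretory or immune cells, and Jchain and Tnfrsf17 did not pass (0.09 and -0.11). Xbp1 and Irf4 did not pass with capillary array 2 left out (adjusted p = 0.0777 and 0.0514). Pf4, platelet factor 4, read 1.88, 1.86, 0.72 and 0.62 on the HEC arrays, against -0.22 and -0.02 on the capillary arrays, and its double-positive arrays lay above both MAdCAM1+ arrays (difference from capillary cells 1.39 ± 0.24, gate difference 1.20 ± 0.28, adjusted p = 0.427 for the gates).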
